A study of Mus musculus with 21 samples.

Results

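The long intergenic noncoding RNA (lincRNA) share of a cell is the percent of its captured transcripts that come from lincRNA genes. It was read from a percent value deposited for every cell and summarised as the median over the cells of each sample and cell type with at least 10 cells. Cell types were the authors' labels after integration of all samples by Harmony. This took in 83655 of 87822 cells and 423 of 483 possible pairs of a sample and a type. Another 270 labelled cells lay in pairs with fewer than 10 cells, and 3897 cells carried no Harmony label.

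LincRNA genes lie between protein-coding genes and give long RNAs that are not translated, many of them spliced and polyadenylated like messenger RNAs. Several of the best known stay in the nucleus: Malat1 gathers in nuclear speckles, Neat1 builds paraspeckles, and Xist coats the inactive X chromosome of female cells. Skeletal muscle fibers hold many nuclei in 1 large cytoplasm, whereas the stem, stromal, vascular and immune cells around them hold 1 each. As orientation, a GENCODE annotation of the mm10 genome classes 5854 of 55450 genes as lincRNA. Among them are Malat1 (chromosome 19, 5795690 to 5802672, minus strand) and its neighbour Neat1 (chromosome 19, 5824708 to 5845478, minus strand). The list of genes behind the deposited percent was not given in the sources used here, and values of single genes were not analysed here.

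The samples were tibialis anterior muscles of female C57Bl/6J mice aged 20 months, with 1 mouse per sample. Muscle regeneration was started by notexin, a snake-venom phospholipase that destroys myofibers. Uninjured muscle came from 4 mice, and injured muscle from 4 mice on day 1 after injection, 3 on day 2, 4 on day 3.5, 3 on day 5 and 3 on day 7. Samples are named by days post injury (dpi) and a letter, such as 1 dpi A. Dissociated cells were sequenced with the 10x Chromium v3 kit, which marks each captured transcript by a unique molecular identifier (UMI).

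A sample held between 974 and 10556 cells and a total of 5602464 to 70730171 UMIs. The median cell of a sample had between 3115 UMIs in uninjured C and 14614 UMIs in 3.5 dpi B. Over all 87822 cells the median lincRNA share was 1.37%, with a highest value of 30.5%, and 0.832% of cells had a share of 0. Protein-coding genes gave a median of 92.4% of a cell's UMIs, and antisense genes, another noncoding class, 0.0666%. By median share lincRNA was the largest of the 6 noncoding classes deposited.

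Some libraries stood apart in depth. Sequencing saturation, the percent of reads that repeat an already counted molecule, was 87.4% in uninjured D and 83% in 1 dpi B, against a median of 48% over the 21 samples. These were also the smallest libraries, with 974 and 1197 cells. In all 6 time points the most saturated library had the fewest cells. In 5 of the 6 it also had the highest lincRNA share at equal composition, a value of the sample from a fit that adjusts for its cell types. It had the highest median of its time point in 75 of 108 pairs of a type and a time point in which all samples of the time point were measured. Over the 210 pairs of samples, the most barcodes that any pair shared was 32. The largest shared part of the smaller sample, taken separately over the pairs, was 0.418%.

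Which cell types carry much lincRNA was asked first. Neural cells, which belong to the nerves of the muscle, had the highest share at 3.14% ± 0.523 (SD, n = 21 samples), and smooth muscle cells of vessel walls followed at 2.80% ± 0.880 (n = 21). B cells (2.36% ± 0.486, n = 14) and neutrophils (2.26% ± 0.368, n = 17) came next. At the other end, the cells labelled as myonuclei of the fast fiber types stood far below all other types, with 0.143% ± 0.105 (n = 20) in type IIb and 0.165% ± 0.147 (n = 19) in type IIx myonuclei. The next types up, myoblasts/progenitors (0.910% ± 0.427, n = 10) and patrolling monocytes (1.10% ± 0.236, n = 17), lay well above them. The libraries were made from dissociated cells and not from isolated nuclei, so these shares are not those of nuclei alone. Differences between types after removal of sample differences took 65.6% of the variance of the 423 medians, and differences between samples after removal of types took 13.1%.

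**Figure D1:**
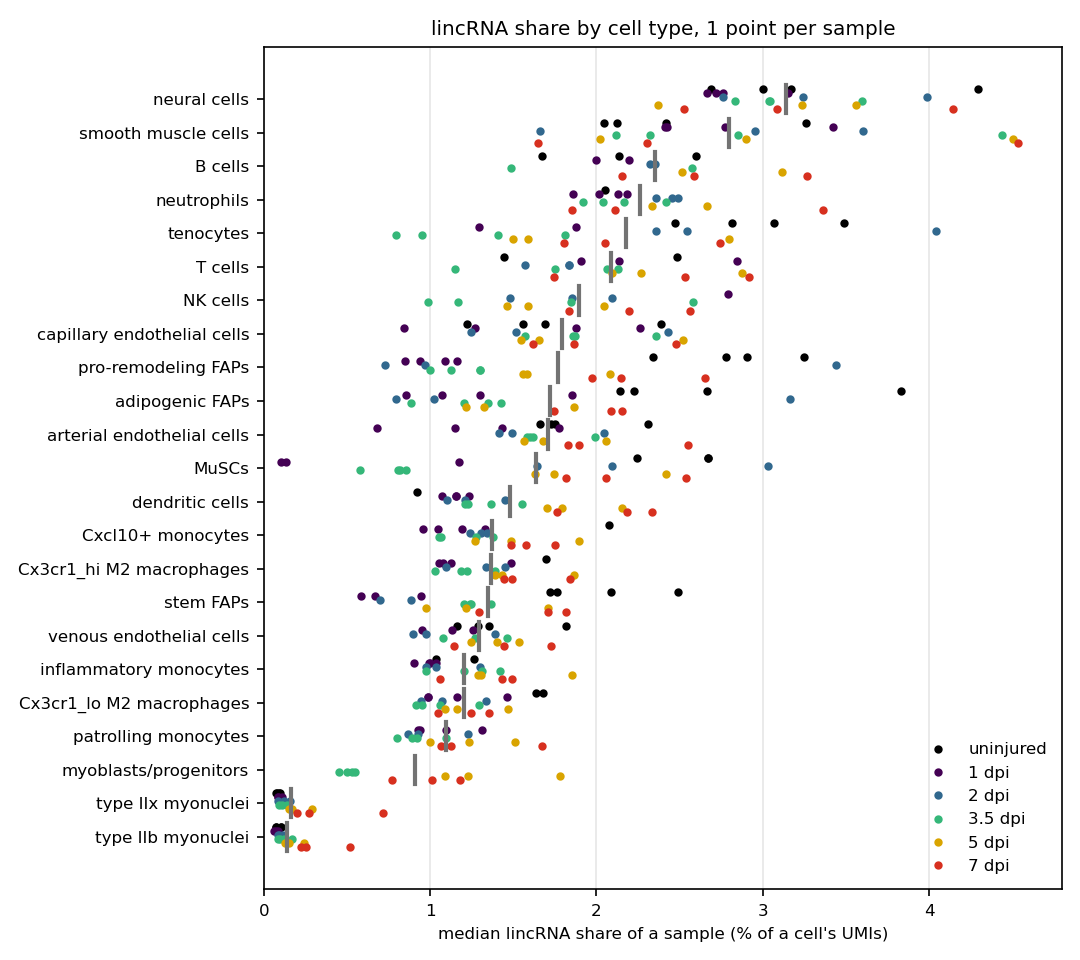
Median lincRNA share (percent of a cell's UMIs) of each cell type, 1 point per sample colored by days post injury (dpi), with the mean over samples as a grey bar. Type IIb and type IIx myonuclei lie below 0.8% in every sample, and neural cells lie above 2.3% in every sample.

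The extremes recurred across the mice. Neural cells ranked highest in 13 of 21 samples and among the top 3 in all 21, and smooth muscle cells ranked highest in 4. Type IIb myonuclei were among the lowest 2 types in all 20 samples in which they were measured, and type IIx myonuclei in all 19. Between the extremes stood tenocytes (2.18%), T cells (2.09%), NK cells (1.89%), capillary endothelial cells (1.79%), pro-remodeling fibro-adipogenic progenitors (FAPs, stromal cells, 1.77%) and adipogenic FAPs (1.72%). Arterial endothelial cells (1.71%), muscle stem cells (MuSCs, 1.63%), dendritic cells (1.48%), Cxcl10+ monocytes (1.37%) and Cx3cr1_hi M2 macrophages (1.37%) followed. Stem FAPs (1.35%), venous endothelial cells (1.29%), inflammatory monocytes (1.20%) and Cx3cr1_lo M2 macrophages (1.20%) completed the order.

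Each type was compared with the median of the other types of the same sample by a two-sided exact sign-flip test over samples, with Benjamini-Hochberg adjustment and a threshold of 0.05, as in all families of tests here. Of 23 types 17 (73.9%) differed from the other types, 7 higher and 10 lower. Neural cells lay 1.61 percentage points above the others in 21 of 21 samples, and smooth muscle cells 1.27 points above in 19 of 21, both with an adjusted p of 2.19e-05. Type IIb myonuclei differed by -1.51 points, lower in 20 of 20 samples, and type IIx by -1.51 points, lower in 19 of 19, with the same adjusted p. Neutrophils (0.842 points, higher in 15 of 17 samples) and B cells (0.827 points, higher in 14 of 14) were also above. Among immune cells the direction differed: B, T and NK cells and neutrophils were higher, while 5 monocyte and macrophage types were lower. Capillary and arterial endothelial cells, pro-remodeling and adipogenic FAPs, MuSCs and dendritic cells did not pass the threshold.

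Neighbours in the order mostly could not be separated. Of 22 tests between a type and the next lower one, a family chosen after the values were seen, the exact sign-flip test passed for dendritic cells above Cxcl10+ monocytes (0.177 points, 13 of 17 samples, adjusted p = 0.0430). It also passed for myoblasts/progenitors above type IIx myonuclei (0.722 points, 9 of 9 samples, adjusted p = 0.0430). The same medians set the order, and so the pairs and their direction, which makes these p-values descriptions only. Neural over smooth muscle cells (0.340 points, 17 of 21 samples, adjusted p = 0.137) and type IIx over type IIb myonuclei (0.0214 points, 14 of 19 samples, adjusted p = 0.161) did not pass. Without the most saturated library of each time point, a setting chosen after the values were seen, 14 of the 17 calls against the other types were kept, and Cx3cr1_hi M2 macrophages, Cxcl10+ monocytes and NK cells were lost. NK cells were also lost with pooled UMIs (adjusted exact sign-flip p = 0.229) and BBKNN labels (0.117), Cxcl10+ monocytes with the mean over cells (0.0611), and Cx3cr1_hi M2 macrophages with at least 30 cells (0.138). Stem FAPs were lost with pooled UMIs as well. Pro-remodeling FAPs, 0.220 points above the others and not called, passed as higher with the mean over cells (0.262 points, adjusted p = 0.0377) and in cells with 3000 to 10000 UMIs (0.597 points, adjusted p = 0.00294), and as lower with BBKNN labels (-0.327 points, adjusted p = 0.00880). Adipogenic FAPs passed with the mean over cells, with pooled UMIs and, as higher, with BBKNN labels (0.664 points, adjusted exact sign-flip p = 2.67e-05). Dendritic cells passed with at least 30 cells, and as lower with BBKNN labels (-0.199 points, adjusted p = 0.0450). MuSCs passed with pooled UMIs. Capillary and arterial endothelial cells passed with mitochondrial UMIs out of the denominator, and capillary ones with at least 30 cells.

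Over the time course the types with the highest shares showed no called change. Neural cells had group means of 3.29% ± 0.701 (n = 4) in uninjured muscle, 2.82% ± 0.223 (n = 4) on day 1, 3.33% ± 0.617 (n = 3) on day 2, 3.13% ± 0.327 (n = 4) on day 3.5, 3.06% ± 0.615 (n = 3) on day 5 and 3.25% ± 0.822 (n = 3) on day 7. Smooth muscle cells had 2.46% ± 0.554, 2.76% ± 0.474, 2.74% ± 0.987, 2.93% ± 1.05, 3.14% ± 1.26 and 2.83% ± 1.51 at the same time points and with the same numbers of mice. Neither type passed the test over time, and in both the groups overlapped throughout. On days 5 and 7 the smooth muscle values were far apart, with 2.90%, 2.02% and 4.50% in 5 dpi A to C and 1.65%, 2.31% and 4.53% in 7 dpi A to C.

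Of the high immune types, B cells had a mean of 2.13% ± 0.462 (n = 3) in uninjured muscle, and 2.10%, 2.34%, 2.03% and 2.82% on days 1, 2, 3.5 and 5 with 2 mice each, then 2.67% ± 0.562 (n = 3) on day 7. Neutrophils reached 10 cells in 1 uninjured sample, with 2.05%, and had 2.05% ± 0.143 (n = 4) on day 1, 2.43% ± 0.0674 (n = 3) on day 2, 2.14% ± 0.216 (n = 4) on day 3.5, 2.50% ± 0.234 (n = 2) on day 5 and 2.44% ± 0.808 (n = 3) on day 7. Neither immune type passed the test over time, but with at least 30 cells neutrophils did (0.457 points from day 1 to day 5, adjusted permutation p = 0.0277). Patrolling monocytes were not measured in uninjured muscle and had 1.07% ± 0.180 (n = 4), 1.01% ± 0.193 (n = 3), 0.929% ± 0.124 (n = 4), 1.25% ± 0.256 (n = 3) and 1.29% ± 0.335 (n = 3) from day 1 to day 7, without passing it either.

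Whether a type's lincRNA share differed between time points was tested in the 22 types with enough samples, by permutation of the F statistic. It passed in 7 of the 22 (31.8%): stem FAPs, pro-remodeling FAPs, tenocytes and MuSCs were lowest on day 1 or 3.5, and dendritic cells, type IIb myonuclei and type IIx myonuclei were highest on day 7. Stromal types and MuSCs thus had their highest means in uninjured muscle or, for tenocytes, on day 2, and the myonuclei late in regeneration.

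**Figure D2:**
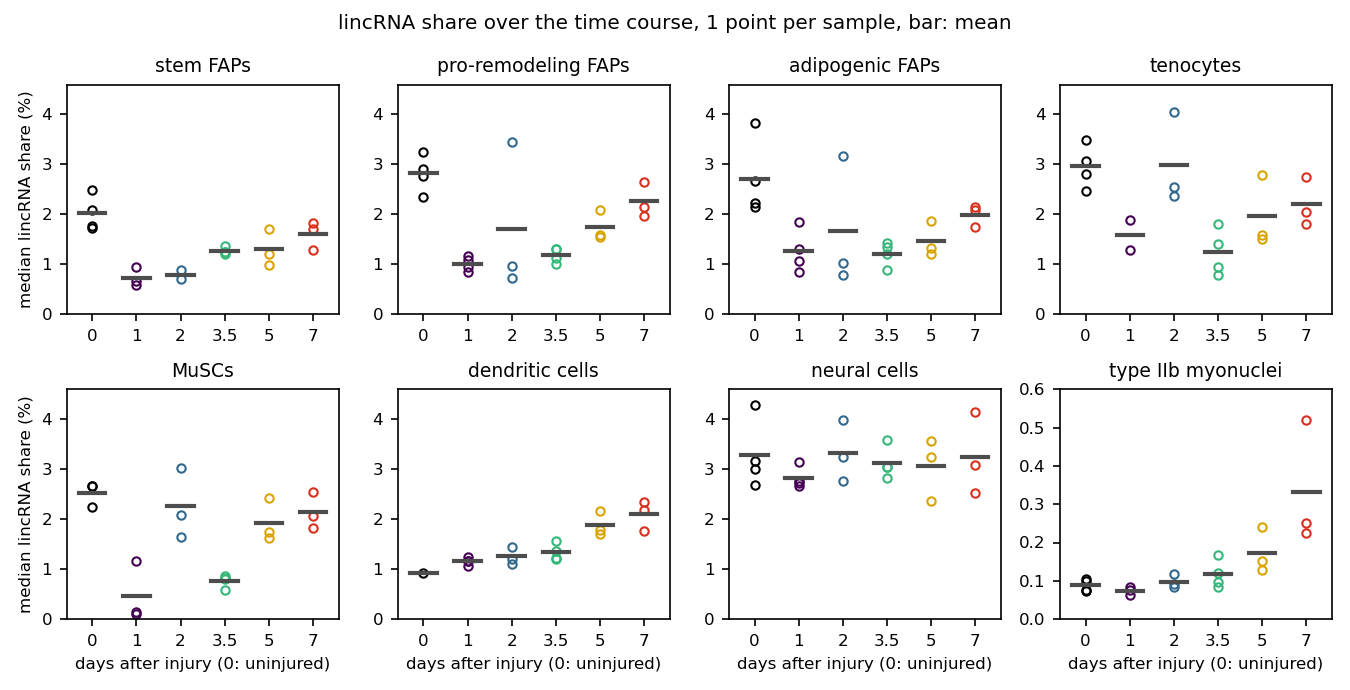
Median lincRNA share of 8 cell types by days after injury, 1 point per sample with the group mean as a bar, and a separate scale for type IIb myonuclei. The means of FAPs are highest in uninjured muscle, those of dendritic cells and type IIb myonuclei on day 7, and neural cells show no called change.

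Pro-remodeling FAPs had the largest fall among the stromal types. Their shares were 2.91%, 2.34%, 2.78% and 3.25% in uninjured A to D, and 0.940%, 1.16%, 1.09% and 0.847% in 1 dpi A to D. All 4 values on day 1 lay below all uninjured values, with means of 1.01% ± 0.143 against 2.82% ± 0.374 (n = 4 each). On day 2 the samples disagreed, with 0.971% and 0.730% in A and B and 3.44% in C, whose median rests on 21 cells (mean 1.71% ± 1.50, n = 3). The share was 1.18% ± 0.146 (n = 4) on day 3.5, 1.74% ± 0.296 (n = 3) on day 5 and 2.26% ± 0.354 (n = 3) on day 7. The difference from uninjured muscle was -1.81 points on day 1, with an adjusted permutation p of 0.0347 over time points. That call was lost in 13 of the 21 repeats that leave out 1 sample, with an adjusted p of at most 0.0901, namely without uninjured A, C or D, 1 dpi A, C or D, any sample of day 3.5, 5 dpi A, or 7 dpi B or C. It was also lost with the mean over cells (adjusted permutation p = 0.0538), with a stricter cell filter that keeps cells from 1000 genes and 2000 UMIs upward with up to 15% mitochondrial UMIs (0.0542), and among cells with 3000 to 10000 UMIs (0.384). With BBKNN labels too few uninjured samples held this type, so the fall from uninjured muscle could not be tested under them.

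Stem FAPs fell in the same direction from a lower starting level. Their shares were 1.72%, 1.77%, 2.09% and 2.49% in uninjured A to D (mean 2.02% ± 0.358), and 0.668%, 0.943% and 0.587% in 1 dpi A, C and D (0.733% ± 0.187). All 3 values on day 1 lay below all 4 uninjured ones. The mean was 0.791% ± 0.133 (n = 2) on day 2, 1.26% ± 0.0728 (n = 4) on day 3.5, 1.30% ± 0.373 (n = 3) on day 5 and 1.61% ± 0.278 (n = 3) on day 7, where 2 of 3 samples were still below the lowest uninjured value. The difference on day 1 was -1.28 points (adjusted permutation p = 0.00352), and the call was kept without each single sample. With a minimum of 5 cells it was lost (-0.961 points, adjusted permutation p = 0.310), and among cells with 3000 to 10000 UMIs as well (adjusted p = 0.0852).

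All injured samples were compared with the uninjured ones in 13 types by a two-sided exact permutation test, and 3 of the 13 (23.1%) passed, all lower after injury: the FAP types. Stem FAPs differed by -0.847 points (1.17% ± 0.383, n = 15, against 2.02% ± 0.358, n = 4), and 14 of 15 injured samples lay below the lowest uninjured one (adjusted p = 0.0168). Pro-remodeling FAPs differed by -1.30 points (1.52% ± 0.727, n = 17, against 2.82% ± 0.374, n = 4; 15 of 17 below, adjusted p = 0.0224). Adipogenic FAPs, named after their values were seen, differed by -1.23 points (1.49% ± 0.604, n = 17, against 2.72% ± 0.778, n = 4; 15 of 17 below, adjusted p = 0.0224). Over the time course adipogenic FAPs did not pass (adjusted permutation p = 0.109), but passed without 2 dpi C (-1.50 points from uninjured muscle, adjusted p = 0.00506). Without uninjured D, the smallest and most saturated library, none of the 3 differences passed the exact test, with -0.688, -1.15 and -0.857 points and adjusted p of 0.0956, 0.0969 and 0.122 for stem, pro-remodeling and adipogenic FAPs. In that setting 0 of 13 types passed and 3 had an unadjusted p under 0.05. Without the most saturated library of every time point all 3 passed, with -0.790, -1.38 and -1.06 points and an adjusted p of 0.00952 each. The call was lost in stem FAPs with pooled UMIs (adjusted exact permutation p = 0.0788) and at least 30 cells (0.0529), and in adipogenic FAPs with at least 30 cells (0.110), the stricter cell filter (0.0688) and BBKNN labels (0.422). With the labels of BBKNN, another integration method, pro-remodeling FAPs had too few uninjured samples for this test, although Harmony gave 1097 uninjured cells in 4 samples this label.

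On day 1 depth and other readouts of the FAPs moved along with the share, and lincRNA UMIs per cell, a measure chosen after the values were seen, are given beside it. In pro-remodeling FAPs the mean of the sample medians was 5969 UMIs per cell in uninjured muscle and 21748 on day 1, while lincRNA UMIs per cell were 183 and 247. So the share was lower on day 1 although the number of lincRNA UMIs per cell was not. Ribosomal protein genes took 8.56% and 17.8% of the UMIs, and mitochondrial genes 11.4% and 4.36%. Stem FAPs showed the same, with 7865 and 26407 UMIs, 161 and 211 lincRNA UMIs, and ribosomal shares of 13.1% and 20.0%. On day 2, by contrast, lincRNA UMIs per cell were below the uninjured ones. They were 146 against 183 in pro-remodeling, 76.1 against 161 in stem and 98.9 against 158 in adipogenic FAPs. On day 7 stem FAPs had 7638 UMIs and 122 lincRNA UMIs per cell, and pro-remodeling FAPs 12979 and 300. Among cells with 3000 to 10000 UMIs, the difference between injured and uninjured samples passed in stem FAPs (-1.20 points, adjusted exact permutation p = 0.0120) but not in pro-remodeling FAPs (-0.861 points, adjusted p = 0.330) or adipogenic FAPs (-1.19 points, adjusted p = 0.109). In that window 0 of 19 types passed the permutation test over time after adjustment, and 9 had an unadjusted p under 0.05. The part of depth and RNA content in the fall was not tested.

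Tenocytes, the fibroblasts of tendon, had shares of 2.82%, 2.47%, 3.07% and 3.49% in uninjured A to D (2.96% ± 0.428) and 1.41%, 0.795%, 0.954% and 1.81% in 3.5 dpi A to D (1.24% ± 0.461). All values on day 3.5 lay below all uninjured ones, and the difference was -1.72 points (adjusted permutation p = 0.0310 over time). The means were 1.59% ± 0.413 (n = 2) on day 1, 2.98% ± 0.924 (n = 3) on day 2, 1.96% ± 0.723 (n = 3) on day 5 and 2.20% ± 0.485 (n = 3) on day 7. The mean on day 2 was close to the uninjured one. From uninjured muscle to day 3.5 the UMIs per cell went from 4662 to 18093 and lincRNA UMIs per cell from 141 to 209, as means of sample medians, and the mitochondrial percent from 15.6% to 5.31%. Of the 84 tenocytes on day 3.5, 31.0% were also tenocytes by BBKNN, against 97.8% of the 315 in uninjured muscle. With cells of another broad class by BBKNN left out, the call was lost (adjusted permutation p = 0.266), as it was with the mean over cells (0.0538), at least 30 cells (0.120), the stricter cell filter (0.0959) in the window of 3000 to 10000 UMIs (0.308) and with BBKNN labels (0.302). It was also lost without any 1 of uninjured A, C or D, 3.5 dpi A, B or C, or 7 dpi B, with an adjusted p of at most 0.0786.

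Dendritic cells, which present antigen to T cells, had a higher mean share at each later injured time point. It was 1.16% ± 0.0674 (n = 4) on day 1, 1.25% ± 0.180 (n = 3) on day 2, 1.34% ± 0.159 (n = 4) on day 3.5, 1.88% ± 0.239 (n = 3) on day 5 and 2.09% ± 0.297 (n = 3) on day 7. The single uninjured sample with at least 10 dendritic cells, B, had 0.922% in 12 cells and was not part of the test. The values were 1.16%, 1.23%, 1.16% and 1.07% in 1 dpi A to D, and 1.76%, 2.19% and 2.33% in 7 dpi A to C. These groups did not overlap, and the difference of 0.940 points came with an adjusted permutation p of 0.00352 over time. From day 1 to day 7 the UMIs per dendritic cell went from 12262 to 7941 and lincRNA UMIs per cell from 148 to 166, as means of sample medians. The call was kept without each single sample and lost among cells with 3000 to 10000 UMIs (adjusted p = 0.0655), where the difference was 0.949 points.

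The myogenic lineage runs from stem cells through progenitors to the nuclei of finished fibers. MuSCs had 2.67%, 2.24% and 2.67% in uninjured A to C and 0.136%, 1.17% and 0.104% in 1 dpi A, C and D. The means were 2.53% ± 0.247 and 0.471% ± 0.608 (n = 3 each), a difference of -2.06 points and the widest of the types that passed over time (adjusted permutation p = 0.00352). On day 3.5 the values were 0.806%, 0.856%, 0.820% and 0.580% in A to D (0.766% ± 0.125), all below the uninjured ones. MuSCs had 2.26% ± 0.709 on day 2, 1.93% ± 0.427 on day 5 and 2.14% ± 0.368 on day 7 (n = 3 each), so the low levels on days 1 and 3.5 were separated by a high one.

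The MuSC label did not hold the same cells on days 1 and 2 as at other times. Of the MuSCs by Harmony, 25.6% of 117 on day 1 and 14.1% of 156 on day 2 were myogenic cells or myonuclei by BBKNN, against 94.2% of 172 in uninjured muscle and 99.3% of 402 on day 3.5. On day 2 68.6% of them were myeloid by BBKNN, with a median share of 3.56% over these cells, against 0.978% over the 22 myogenic ones. The 30 myogenic cells on day 1 had a median of 0.0789% at 1416 UMIs per cell. Of the cells under the label on day 1, 35.9% were stromal, vascular or neural by BBKNN, with a median of 0.0656%. Another 19.7% were myeloid (4.845%) and 18.8% were lymphocytes (1.87%). The low level on day 1, the difference of -2.06 points from uninjured muscle and the high level on day 2 are therefore values of the cells under this label. With only cells of the same broad class by both methods, a setting chosen after the values were seen, MuSCs passed over time (adjusted permutation p = 0.00279), with a difference of -1.73 points on day 3.5, while days 1 and 2 had too few samples with 10 cells to be tested. The call of MuSCs over time was lost with the mean over cells (adjusted permutation p = 0.0548) and among cells with 3000 to 10000 UMIs (adjusted p = 0.0902). With BBKNN's own labels and with the stricter cell filter MuSCs had too few samples for a test over time.

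Depth on day 3.5 differed from that of uninjured MuSCs. The mean of the sample medians was 5085 UMIs per cell in uninjured muscle, 1593 on day 1, 1810 on day 2, 16092 on day 3.5, 10186 on day 5 and 8946 on day 7. LincRNA UMIs per cell were 131 in uninjured MuSCs, 17.4 on day 1, 138 on day 3.5 and 204 on day 7. On day 3.5 the number of lincRNA UMIs per cell was thus close to the uninjured one while the share was lower, and on day 1 both were low. The part of depth in this was not tested.

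Myoblasts/progenitors, the dividing and differentiating descendants of MuSCs, reached 10 cells from day 3.5 on. Their shares were 0.498%, 0.533%, 0.549% and 0.454% in 3.5 dpi A to D, 1.09%, 1.23% and 1.78% in 5 dpi A to C, and 1.18%, 1.01% and 0.774% in 7 dpi A to C. The means were 0.509% ± 0.0422 (n = 4), 1.37% ± 0.366 (n = 3) and 0.989% ± 0.205 (n = 3), and every value on days 5 and 7 lay above every value on day 3.5. With 3 time points, the type was not in the test over time. UMIs per cell were 31990, 13799 and 11215 and lincRNA UMIs per cell 178, 204 and 106 as means of sample medians at these times. The label did not hold the same cells throughout, since 97.9%, 80.5% and 57.4% of them had the same broad class by BBKNN on days 3.5, 5 and 7.

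The authors also placed myogenic cells in 4 states along a differentiation path, from quiescent and activated MuSCs through committed myoblasts to fusing myocytes, and the states were compared within samples together with the myonuclei. Of 15 pairs 12 (80%) differed by a two-sided exact sign-flip test. Quiescent MuSCs had the highest share of the 4 states in 7 of the 8 samples that held all of them. Activated MuSCs differed from them by -0.313 points (1.17% against 1.48%, lower in 9 of 10 samples, adjusted p = 0.00837), committed myoblasts by -0.488 points (8 of 8, adjusted p = 0.0117) and fusing myocytes by -0.708 points (10 of 10, adjusted p = 0.00732). Both kinds of myonuclei differed from all 4 states, with adjusted p from 0.00366 to 0.0213. They were lower in every sample except against fusing myocytes, where type IIb was lower in 9 of 10 and type IIx in 8 of 9, uninjured A being the exception. Activated MuSCs, committed myoblasts and fusing myocytes could not be separated from each other, with adjusted exact sign-flip p of 0.108, 0.109 and 0.773 for the 3 pairs. Committed myoblasts passed below activated MuSCs with the mean over cells (adjusted exact sign-flip p = 0.0293) and pooled UMIs (0.0320), and fusing myocytes did on the log2 scale (0.0361) and with mitochondrial and ribosomal protein UMIs out of the denominator (0.0107). With at least 30 cells, activated and quiescent MuSCs were not separated (0.0833). The stricter cell filter lost type IIb myonuclei against committed myoblasts (0.0508) and fusing myocytes (0.0903) and type IIx against activated MuSCs (0.0508), and without the most saturated libraries type IIx against committed myoblasts was lost (0.0721).

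**Figure D3:**
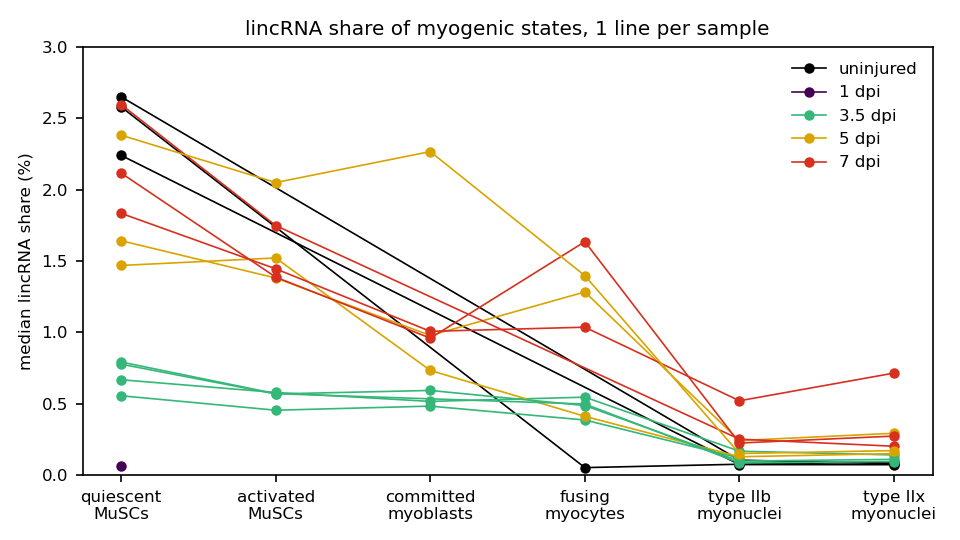
Median lincRNA share of the 4 myogenic states and of type IIb and type IIx myonuclei, with 1 line per sample colored by time point that joins the states with at least 10 cells. Quiescent MuSCs are the highest of the 4 states in 7 of the 8 samples that hold all of them, and the states of day 3.5 all lie below 0.8%.

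In all 4 states the mean on day 3.5 was lower than on days 5 and 7. Quiescent MuSCs had 2.58%, 2.24% and 2.65% in uninjured A to C, 0.792%, 0.777%, 0.668% and 0.556% in 3.5 dpi A to D, 1.47%, 1.64% and 2.38% in 5 dpi A to C and 1.83%, 2.12% and 2.60% in 7 dpi A to C. Their means were 2.49% ± 0.219, 0.698% ± 0.110, 1.83% ± 0.485 and 2.18% ± 0.385, and 1 dpi C had 0.0618% in 11 cells with 1333 UMIs at the median. Activated MuSCs had means of 0.543% ± 0.0592 (n = 4) on day 3.5, 1.65% ± 0.353 (n = 3) on day 5 and 1.53% ± 0.194 (n = 3) on day 7. Neither of the MuSC states had a value on day 3.5 above any on day 5 or 7, and states were not tested over time.

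Of the later states, fusing myocytes overlapped between days 3.5 and 5. Committed myoblasts had means of 0.531% ± 0.0564 (n = 3) on day 3.5 and 1.33% ± 0.824 (n = 3) on day 5, where C had 2.27% and A and B had 0.733% and 0.978%, and 0.983% ± 0.0338 (n = 2) on day 7. Fusing myocytes had 0.479% ± 0.0673 (n = 4) on day 3.5, 1.03% ± 0.539 (n = 3) on day 5 and 1.34% ± 0.424 (n = 2) on day 7, and their lowest value on day 5, 0.411%, lay within the range of day 3.5 (0.386% to 0.546%). Uninjured A had 0.0520% in 10 fusing myocytes, of which 40.0% had no lincRNA UMI at a median of 1756 UMIs per cell. The number of UMIs per cell differed along the path as well, on day 3.5 from 19710 in quiescent MuSCs to 38900 in fusing myocytes as means of sample medians, and its part in the order of states was not tested.

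Myonuclei stayed low but rose late in regeneration. Type IIb myonuclei had 0.0756%, 0.0732%, 0.104% and 0.101% in uninjured A to D (0.0884% ± 0.0163) and 0.520%, 0.224% and 0.251% in 7 dpi A to C (0.332% ± 0.164). Their means were 0.0740% ± 0.0111 (n = 3) on day 1, 0.0976% ± 0.0169 (n = 3) on day 2, 0.117% ± 0.0362 (n = 4) on day 3.5 and 0.173% ± 0.0601 (n = 3) on day 5. All 3 samples of day 5 and all 3 of day 7 lay above the highest uninjured value. The difference on day 7 was 0.244 points (adjusted permutation p = 0.00352 over time), and 0.149 points without 7 dpi A. Without the most saturated library of each time point the call was lost (adjusted p = 0.0635). It was also lost with the mean over cells (adjusted permutation p = 0.0647), with pooled UMIs (0.291), among cells with 3000 to 10000 UMIs (0.0655) and by limma's moderated F test (adjusted p = 0.174). BBKNN gave too few cells either type IIb or type IIx labels for a test, but its single type of myonuclei passed over time (0.281 points from uninjured muscle to day 7, adjusted permutation p = 0.0005).

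Type IIx myonuclei followed the same course. They had 0.0918%, 0.0724%, 0.0794% and 0.0989% in uninjured A to D (0.0856% ± 0.0119) and 0.714%, 0.273% and 0.202% in 7 dpi A to C (0.396% ± 0.278), with no overlap. Their means were 0.0937% ± 0.0122 on day 1, 0.123% ± 0.0343 on day 2, 0.115% ± 0.0234 on day 3.5 and 0.205% ± 0.0770 on day 5 (n = 3 each). The difference on day 7 was 0.311 points (adjusted permutation p = 0.0235 over time), and 0.152 points without 7 dpi A. The call was lost in 10 of the 21 repeats that leave out 1 sample (adjusted p of at most 0.0735), namely without 1 dpi A or D, any sample of day 2, 3.5 dpi A, B or C, or 5 dpi A or C. It was also lost without the most saturated library of each time point (adjusted permutation p = 0.0635), with the mean over cells (0.0538), pooled UMIs (0.0515), at least 30 cells (0.120), the stricter cell filter (0.0959), in the UMI window (0.0933) and by limma (adjusted p = 0.195). Within samples type IIx exceeded type IIb myonuclei by 0.0214 points, in 14 of 19 samples (adjusted exact sign-flip p = 0.0390 among the pairs of states, 0.161 among the neighbours in the order of types). The call among the states was lost without any 1 of uninjured A, 1 dpi A or B, 2 dpi A or B, 5 dpi A, B or C, or 7 dpi A or B, with an adjusted p of at most 0.0779. It was also lost with the mean over cells, pooled UMIs, at least 30 cells, the stricter cell filter and in the UMI window, with adjusted p from 0.136 to 0.827.

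These shares rest on few molecules. A type IIb myonucleus had 2.74 lincRNA UMIs in uninjured muscle and 8.09 on day 7, and a type IIx myonucleus 3.49 and 9.95, as means of sample medians. All UMIs per cell hardly differed for type IIb (2496 and 2408) and were 3698 and 2487 for type IIx. Cells with no lincRNA UMI made up 10.5% of type IIb and 8.30% of type IIx myonuclei in uninjured muscle and 2.55% and 1.91% on day 7. RNA from other cells left after the ambient correction was not measured per type, and its part in these low shares was not tested.

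Whether a type's time course differed from that of the other types was tested on its distance from the median of the other types of the same sample. Of 22 types 9 (40.9%) passed the permutation test of the F statistic. In MuSCs (adjusted p = 0.00616) the distance was 0.648 points in uninjured muscle, -0.632 on day 1, 0.954 on day 2 and -0.497 on day 3.5. In tenocytes (adjusted p = 0.00781) it was 0.940 points in uninjured muscle, 1.68 on day 2 and 0.00842 on day 3.5. The MuSC call was lost with the mean over cells (adjusted permutation p = 0.137), and the tenocyte call with at least 30 cells (0.0512) and the stricter cell filter (0.0591). In dendritic cells the distance was -0.0199 points on day 1, -0.279 on day 2 and 0.274 on day 5 (adjusted permutation p = 0.0357), a call lost in 11 of the 21 repeats that leave out 1 sample, with an adjusted p of at most 0.0857. Those were without 1 dpi A or C, 2 dpi B or C, 3.5 dpi B or D, any sample of day 5, or 7 dpi A or B. It was also lost with the stricter cell filter (0.0591), in the UMI window (0.105), with the replicate letter as a block (0.0847), with the same class by BBKNN (0.0595), without the most saturated libraries (0.133) and by limma (0.0723). Pro-remodeling FAPs (-0.986 points on day 1, adjusted p = 0.179) and stem FAPs (-0.325 points on day 2, adjusted p = 0.0855) did not pass, so their fall was not shown to differ from that of the other types. Without 2 dpi C, pro-remodeling and adipogenic FAPs passed with -0.986 and -0.903 points (adjusted permutation p = 0.00022 and 0.0164), and without the most saturated libraries they passed as well (0.00022 and 0.0102). Pro-remodeling FAPs also passed with pooled UMIs (0.0022) and at least 30 cells (0.0002), and stem FAPs with at least 30 cells (0.0188) and on the log2 scale (0.0232).

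The sample as a whole was described by a share at equal composition, the sample's term in a least-squares fit of sample and type to the 423 medians. The fit takes the difference between samples as the same in every type, while 9 of 22 types changed relative to the others over time. Samples held between 11 and 23 measured types, and 6 types were measured in all 21 samples. With only those 6 types the permutation test over time points did not pass, as given at the end. It was 1.83%, 1.57%, 1.90% and 2.48% in uninjured A to D, 1.37%, 1.53%, 1.34% and 1.14% in 1 dpi A to D, and 1.4%, 1.4% and 2.02% in 2 dpi A to C. In the later groups it was 1.49%, 1.39%, 1.4% and 1.26% in 3.5 dpi A to D, 1.62%, 1.49% and 2.10% in 5 dpi A to C, and 1.55%, 1.76% and 2.22% in 7 dpi A to C. Means were 1.95% ± 0.385 in uninjured muscle, 1.34% ± 0.162 on day 1, 1.61% ± 0.359 on day 2, 1.39% ± 0.0926 on day 3.5, 1.74% ± 0.325 on day 5 and 1.84% ± 0.345 on day 7. All samples of days 1 and 3.5 thus lay below the lowest uninjured sample.

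Against uninjured muscle 0 of 5 time points (0%) passed the two-sided exact permutation test after adjustment, and 2 of the 5 had an unadjusted p under 0.05. These were day 1 (-0.603 points) and day 3.5 (-0.560 points), each with an exact permutation p of 0.0286, the smallest that 4 against 4 mice allow, and an adjusted p of 0.0714. With only 2 of 5 time points at this smallest p, the adjustment let neither pass. The lack of a call thus does not show that these days were unchanged. The permutation test over all time points gave p = 0.0604. The permutation test passed without uninjured B (p = 0.0346), 2 dpi C (p = 0.0321) or 7 dpi A (p = 0.0444), and with p = 0.0134 without the most saturated library of each time point. The median over all cells of a sample, which also moves with the mix of types, passed that permutation test (p = 0.00425). This median was 1.82% ± 0.364 in uninjured muscle and lowest on day 3.5 with 1.11% ± 0.131.

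**Figure D4:**
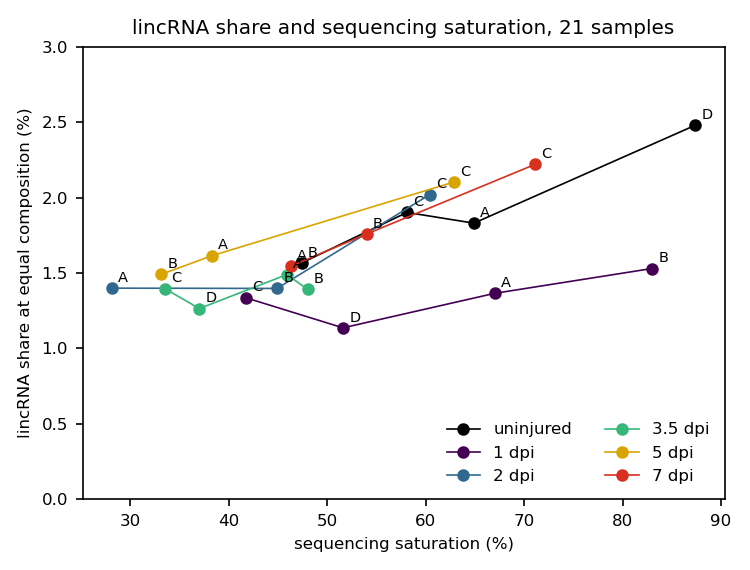
LincRNA share at equal composition against sequencing saturation of 21 samples, with lines joining the samples of a time point and letters naming them. In 5 of 6 time points the most saturated library has the highest share.

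The share at equal composition was related to 7 depth and library measures, with Pearson's r and Spearman's rho and permutation tests of 100000 resamples adjusted over the 14 values. Sequencing saturation had r = 0.657 (p = 0.00144, adjusted 0.0193) and rho = 0.544 (p = 0.0118, adjusted 0.0549) over 21 samples. Without uninjured D and 1 dpi B, the samples farthest from the median saturation, r was 0.650. Among the 17 injured samples alone neither value passed (r = 0.490, adjusted permutation p = 0.206, and rho = 0.382, adjusted p = 0.228). Removing the mean of each time point gave r = 0.853 (p = 1e-05, the smallest the resamples can give, adjusted 7e-05) and rho = 0.801 (adjusted p = 0.00014). Within time points, then, samples sequenced to higher saturation had higher lincRNA shares. Mean reads per cell had r = 0.474 and rho = 0.213 over all samples (adjusted permutation p = 0.0817 and 0.597), and r = 0.832 and rho = 0.745 within time points (adjusted p = 7e-05 and 0.000735). Without uninjured D and 1 dpi B the r over all samples was 0.323. The SoupX estimate of ambient contamination had r = -0.201 and rho = -0.0858 over all samples (adjusted permutation p = 0.597 and 0.901), and r = -0.533 and rho = -0.555 within time points (adjusted p = 0.0307 and 0.0284).

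The mitochondrial percent at equal composition was the other measure to pass over all samples. It had rho = 0.631 (permutation p = 0.00276, adjusted 0.0193) but r = 0.244 over all samples and r = -0.505 within time points (adjusted p = 0.0326), so its direction was not stable. Median UMIs per cell had r = -0.386 and rho = -0.526 over all samples (adjusted permutation p = 0.194 and 0.0549), and 0.181 and 0.223 within time points. Intronic reads (r = -0.134) and intergenic reads (r = 0.00288) had adjusted p of at least 0.792. Since the most saturated libraries also had the fewest cells, the parts of saturation, reads per cell and number of cells in the share cannot be told apart.

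Among the other readouts deposited for each cell, the closest to the lincRNA share over the 423 medians of samples and types were the percent of protein-coding genes (rho = -0.789), of transcription factor genes (rho = 0.697) and of mitochondrial genes (rho = 0.552). These are descriptions over pairs that share samples, depth and types, and the protein-coding percent shares its denominator with the lincRNA percent. With type means removed, the protein-coding percent kept rho = -0.703, while the transcription factor percent had 0.355 and the mitochondrial percent 0.285. The antisense percent had rho = 0.416 before and 0.517 after that removal. Types with more lincRNA thus tended to have a larger share of transcripts for transcription factors.

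Cells of 1 type and sample were compared as well, as the median over samples with at least 30 such cells of rho over cells, which share library and type. UMIs per cell are the denominator of the lincRNA share and of the ribosomal percent, so these values are descriptions of measures that are not independent. The lincRNA share went down with the percent of ribosomal protein genes in smooth muscle cells (rho = -0.619, 15 samples), capillary endothelial cells (-0.518, 21 samples) and MuSCs (-0.433, 16 samples), while type IIb (0.213, 18 samples) and type IIx myonuclei (0.185, 13 samples) had positive values. It went down with UMIs per cell in T cells (-0.525, 15 samples), B cells (-0.453, 7 samples) and smooth muscle cells (-0.438, 15 samples). In neural cells, the type with the highest share, rho was -0.153 with UMIs and -0.218 with ribosomal protein genes (12 samples). Stem FAPs (0.169) and myoblasts/progenitors (0.202) had positive values with UMIs, so the relation of share to depth was not of 1 direction in all types.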

How the data were processed

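Per the labels, the authors aligned reads to mm10 with Cell Ranger 3.1.0, subtracted ambient RNA with SoupX, filtered cells with Seurat 3.1.5 and removed doublets before they deposited the tables. The paper's methods name Seurat 3.2.1 instead. The deposited UMI totals per cell are expected counts, since the correction made them non-whole. The deposited numbers of genes per cell and of reads per cell are counts. The lincRNA, mitochondrial and other shares and the sequencing saturation are percent values as the authors deposited them. The SoupX contamination is a fraction deposited by the authors, used here as a percent. Labels of types and states are the authors' own. The genes behind each percent are not given in the sources used here.

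From these, medians per sample and type (at least 10 cells) were computed with Python 3.11.15, numpy 2.4.6, pandas 2.3.3, scipy 1.17.1 and matplotlib 3.10.9, and limma 3.58.1 in R 4.3.3 as an alternative. The mouse was the unit of every test, permutation tests used 100000 resamples, and the steps were tested on simulated data. A test over time needed at least 4 time points with at least 2 samples, one against other types at least 6 samples, one of injured against uninjured at least 3 uninjured and 6 injured samples, and a pair of states at least 5. Members and lists were chosen with earlier results of these data known. Values in every group were given for the 4 types with the highest and the 4 with the lowest mean, the 5 with the widest range of time point means among those past the threshold over time, and the myogenic types and states, and the other types by their mean. The 3 other percent columns with the largest absolute rho were named. Cells without a Harmony label were left out of tests of Harmony types, of states and at equal composition, and were part of the median over all cells of a sample and of the alternative with BBKNN labels. Alternatives were another summary over cells, other minimums of cells, a stricter cell filter, a depth window, other denominators, a log2 scale with a pseudocount of 0.1, BBKNN labels, the replicate letter as a block, limma, and leaving out samples.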

Additional observations from a re-analysis of the deposited data

Results flagged for a closer look

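In groups of 4 samples, 1 sample lay far from the others in 4 of 53 groups of a type or state and a time point, where chance alone gives about 1 in 20, or 2.65. Arterial endothelial cells had 2.31% in uninjured D, against 1.66% to 1.75% in the other uninjured samples, and 1.99% in 3.5 dpi A, against 1.59% to 1.62%. Cx3cr1_hi M2 macrophages had 1.48% in 1 dpi B, against 1.05% to 1.13%. Activated MuSCs had 0.454% in 3.5 dpi D, against 0.568% to 0.579%.

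The distance of a type's share from the other types of its sample differed between time points, by the permutation test over time points, in 9 types. From uninjured to 3.5 dpi it rose by 1.18 points in capillary, 0.849 points in venous and 0.819 points in arterial endothelial cells, and by 0.707 points in inflammatory monocytes. The other types of the sample set this distance, and the shares of these 4 types themselves did not pass over time. With pooled UMIs the shares of arterial endothelial cells and inflammatory monocytes did pass, and those of arterial endothelial cells also without 1 dpi B. The call was lost without uninjured A or D in capillary (adjusted p of at most 0.0587) and arterial endothelial cells, and without 3.5 dpi A or B in the arterial ones (adjusted p of at most 0.0658). The venous call was also lost with the mean over cells (0.0642), pooled UMIs (0.257), at least 30 cells (0.0824), the stricter cell filter (0.0591), the window of 3000 to 10000 UMIs (0.411), BBKNN labels (0.158) and without the most saturated libraries (0.0788). The capillary call was lost with at least 30 cells (0.0661), the stricter filter (0.0591), the replicate letter as a block (0.0591) and without those libraries (0.0788), and the arterial one with the stricter filter (0.0591), on the log2 scale (0.0608) and without those libraries (0.146). Inflammatory monocytes lost it with BBKNN labels (0.244). It differed by -1.28 points from uninjured to 1 dpi in cells labelled MuSCs, most of which were not myogenic by BBKNN at 1 dpi. The distance differed by -0.932 points to 3.5 dpi in tenocytes and by -0.566 points to 7 dpi in Cx3cr1_lo M2 macrophages. From 1 dpi it differed by -0.578 points to 7 dpi in patrolling monocytes and by 0.294 points to 5 dpi in dendritic cells. Cx3cr1_lo M2 macrophages lost the call with the stricter filter (0.0591), in the window (0.423) and without the most saturated libraries (0.0760), and patrolling monocytes with the stricter filter (0.0591), in the window (0.470) and with BBKNN labels (0.115).

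The 3897 cells without a Harmony label entered no test of Harmony types. In the 17 samples with at least 10 of them, all injured, their median share was between 0.654% and 3.33%, with a median of 1.63%. It lay above the sample's share at equal composition in 10 of the 17. By BBKNN 47.6% of them were infiltrating monocytes.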

How the results depend on the processing

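Where the difference of a call could be computed between the same groups, it kept its direction under all alternatives. Calls against the other types were 14 to 19 over all alternatives, against 17, and no time point passed at equal composition in any. Without an uninjured sample, or without the most saturated libraries, too few mice were left for any time point to pass that exact test after adjustment. With the mice of the main test, 2 time points at its smallest p could not pass either. Calls over time, 7 of 22, were 2 of 22 with the mean over cells, 3 of 21 with a stricter cell filter (at least 1000 genes, at least 2000 UMIs, at most 15% mitochondrial UMIs), 0 of 19 among cells with 3000 to 10000 UMIs (9 with an unadjusted p under 0.05) and 4 of 20 with BBKNN labels, where pro-remodeling FAPs passed without an uninjured group. Calls between injured and uninjured samples, 3 of 13, were 1 of 9 with at least 30 cells, 5 of 17 with at least 5 cells, 1 of 12 in the UMI window and 1 of 10 with BBKNN labels. Relative calls over time, 9 of 22, were 1 of 21 with the stricter filter and 5 of 19 in the window. Calls between states, 12 of 15, were 2 of 4 with at least 30 cells, 6 of 13 with the stricter filter and 2 of 3 in the window, so fewer pairs were tested. The permutation test over all time points at equal composition (p = 0.0604, with -0.603 points from uninjured to 1 dpi) passed, with that difference at -0.556 points, with pooled UMIs (p = 0.0192), -0.585 with at least 30 cells (0.0173), -0.825 without mitochondrial UMIs in the denominator (0.0189) and -0.51 on the log2 scale (0.00595). It did not pass, with that difference at -0.546, with the mean over cells (0.0761), -0.567 with at least 5 cells (0.108), -0.565 with the stricter filter (0.0927), -0.469 in the window (0.162) or -0.335 with BBKNN labels (0.471). With the letter as a replicate block it was -0.603 (0.0101), with 7 calls over time, 3 between injured and uninjured samples and 8 relative. The difference over all cells was then -0.712 points. No time point could pass with that block, since its exact sign-flip test had too few pairs of the same letter. Letters do not pair mice, since the median correlation between samples was -0.0828 for the same letter and 0.0484 for different ones. Of 14 relations to library measures, 2 passed, and 7 with time point means removed. limma called 5 types over time, 3 between injured and uninjured samples and 9 relative. Among alternatives chosen after seeing the data, leaving mitochondrial and ribosomal protein UMIs out of the denominator gave 5 calls between injured and uninjured samples and -1.03 points at equal composition (0.0104), and leaving out the most saturated library of each time point gave -0.497 points (0.0134), while -0.574 with the same class by BBKNN (0.101) and -0.697 with only types measured in all samples (0.461) did not pass. Leaving out 1 sample gave 17 to 19 calls against other types, 4 (without 3.5 dpi A, B or C) to 11 (without 1 dpi B) over time, 0 (without uninjured D) to 4 between injured and uninjured samples, 7 to 12 relative and 11 to 12 between states, -0.732 to -0.424 points at equal composition, 0 to 0 time points (none could pass without an uninjured sample), and -0.827 to -0.543 points over all cells. Where these values differ, the cause was not tested. Shares near 0.1% rest on 2 to 3 UMIs per cell, which limits what can be read from myonuclei.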
